A study of Mus musculus with 16 samples.

Results

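Cholesterol synthesis and sterol regulation genes were followed in RNA-seq of whole mouse brain after adolescent drinking of nicotine, ethanol or both. The set holds 29 genes, chosen by symbol for their known role, of 24062 genes in the table of read counts and 23991 in the table of FPKM, a level scaled for both transcript length and library size. It comprises 8 enzymes from acetyl-CoA to squalene (Acat2, Hmgcs1, Mvk, Pmvk, Mvd, Idi1, Fdps and Fdft1), 10 enzymes from squalene to cholesterol (Sqle, Lss, Cyp51, Tm7sf2, Msmo1, Nsdhl, Hsd17b7, Ebp, Sc5d and Dhcr7), 5 genes of sterol sensing (Insig1, Insig2, Scap, Srebf1 and Srebf2) and 6 genes of transport, efflux and turnover (Stard4, Abca1, Abcg1, Cyp46a1, Apoe and Nr1h2). All 29 passed the filter on low counts and were tested in every comparison.

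The brains, with the cerebellum, came from 16 female C57BL/6J mice killed on postnatal day 45, 4 separate mice in each of 4 groups. All groups drank for 10 days from bottles offered 22 h per day, and on the last 4 days had a further drinking session in the dark from a pipette, of 2 h on the earlier days and 4 h on the final day. WW (Water-Water) mice had tap water throughout, NW (Nicotine-Water) mice had 200 µg/ml nicotine in the bottles and water in the sessions, Water-Ethanol mice had water in the bottles and 20% v/v ethanol in the sessions, and NE (Nicotine-Ethanol) mice had both substances. Intake was voluntary, so that dose differed from mouse to mouse, and brain regions cannot be told apart in these libraries. The paper reported higher ethanol intake and blood ethanol on the final day in NE than in Water-Ethanol mice. Ethanol dose thus differs in comparisons that involve NE, the averaged nicotine effect and the interaction included. The bottles were removed for the sessions, so NW and NE mice had no nicotine during the last 4 h.

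The brain makes nearly all of its own cholesterol, because lipoprotein cholesterol of the blood does not cross the blood-brain barrier. Much of it goes into myelin made by oligodendrocytes, and astrocytes pass it to neurons on apolipoprotein E. When sterols in the endoplasmic reticulum are low, SCAP escorts the transcription factors encoded by Srebf1 and Srebf2 to the Golgi for cleavage and they raise transcription of the synthesis enzymes, INSIG proteins hold SCAP back when sterols are plentiful, and the liver X receptors, of which Nr1h2 encodes one form, raise efflux genes instead.

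Total counts ran from 27100352 to 32880979 per mouse with a median of 29448284. In 2 libraries markers of the cerebellum were low: their summed score, a mean of centred log2 CPM (counts scaled to library size), was -1.53 in WW replicate 21 and -0.98 in NW replicate 10, against 0.01 to 0.30 in the other mice. NW replicate 10 also had the highest share of counts from the ribosomal transcript Rn45s (3.9%, lowest library 0.274%). Oligodendrocyte, astrocyte and neuron markers were present in every mouse, and none of these markers was at 0 counts in any library.

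Levels per transcript length spanned a wide range. Apoe, which encodes the main lipoprotein of the brain, was far above the rest, with a mean of 828 FPKM over 16 mice and a range of 785 to 926. Hmgcs1, the cytosolic synthase that makes HMG-CoA, followed at 98.5 FPKM, and Cyp46a1, the neuronal hydroxylase through which the brain disposes of cholesterol, at 68.8 FPKM. Next came the sterol demethylating oxidase Msmo1 (57.4 FPKM), farnesyl diphosphate synthase Fdps (46.4 FPKM) and Srebf2 (44.8 FPKM). The lowest were lanosterol synthase Lss at 6.85 FPKM and the sterol ketoreductase Hsd17b7 at 6.77 FPKM. Among the 28 pairs of neighbours in this order, the 4 WW mice overlapped between both genes in 12 pairs and stood apart in 16. Lss and Hsd17b7 were among the overlapping pairs, and Apoe and Hmgcs1 among those apart.

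**Figure D1:**
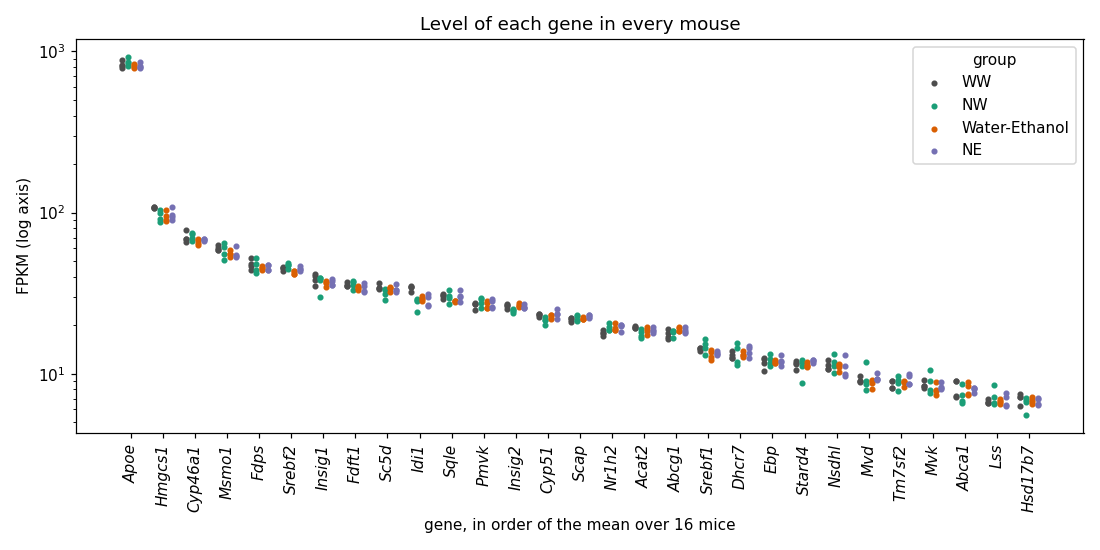
Level of each of the 29 genes in FPKM (log axis), 1 point per mouse, genes ordered by the mean over 16 mice and coloured by group. Apoe stands alone near 828 FPKM, Hmgcs1 is next at 98.5 FPKM, and the groups lie close together for nearly all genes.

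The 250 bases before the transcription start are shown for Idi1 and Hmgcs1, the genes with the largest differences from WW below, and for Srebf2, which encodes the main regulator of the synthesis enzymes. Sequences are from RefSeq on GRCm38.p6, read 5′ to 3′ on the plus strand on which all 3 genes lie, at chr13:8885356-8885605 for Idi1, chr13:119690101-119690350 for Hmgcs1 and chr15:82147019-82147268 for Srebf2. Capitals mark CCAAT (the NF-Y box), GGGCGG (the Sp1 box) and TCACNCCAC (a form of the sterol regulatory element), on either strand.
Idi1: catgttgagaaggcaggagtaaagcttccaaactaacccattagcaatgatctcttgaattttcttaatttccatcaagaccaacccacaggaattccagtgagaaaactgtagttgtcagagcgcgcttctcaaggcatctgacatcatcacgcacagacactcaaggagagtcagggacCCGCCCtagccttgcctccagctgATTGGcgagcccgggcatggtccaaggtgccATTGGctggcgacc
Hmgcs1: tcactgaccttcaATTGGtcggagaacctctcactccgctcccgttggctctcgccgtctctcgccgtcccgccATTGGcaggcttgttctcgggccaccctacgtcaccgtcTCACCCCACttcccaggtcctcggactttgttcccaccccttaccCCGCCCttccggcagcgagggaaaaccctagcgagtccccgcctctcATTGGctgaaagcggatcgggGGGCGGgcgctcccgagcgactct
Srebf2: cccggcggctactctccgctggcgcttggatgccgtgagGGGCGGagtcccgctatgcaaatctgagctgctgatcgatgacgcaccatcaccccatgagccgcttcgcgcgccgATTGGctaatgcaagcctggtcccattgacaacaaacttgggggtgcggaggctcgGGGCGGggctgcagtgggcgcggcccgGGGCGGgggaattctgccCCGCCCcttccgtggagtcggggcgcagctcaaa
Idi1 and Hmgcs1 both hold CCAAT on the minus strand (ATTGG as printed) from -45 to -41 before the start. TCACNCCAC was found in Hmgcs1 alone of the 24 genes with a promoter in the table, against 1.22% of all genes. CCAAT was in 19 of these 24 genes, against 37.5% of all 27025 genes with a promoter, and GGGCGG in 21 of 24, against 35.4%. The E-box letters CACGTG were in 6 of 24 (6.86% of all genes). These letters describe the windows only and do not show binding.

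Idi1 was the one gene of the set that passed the threshold in a comparison with WW. It encodes the isomerase that turns isopentenyl diphosphate into dimethylallyl diphosphate, the step that starts the building of isoprenoid chains (ENSMUSG00000058258, chr13:8885606-8892396, 5 exons, mm10). As counts scaled to a common library size (normalized counts), Idi1 was at 2667, 2772, 2676 and 2493 in the 4 WW mice. The NW mice had 2147, 2289, 1905 and 2261 normalized counts, the Water-Ethanol mice 2344, 2293, 2257 and 2204, and the NE mice 2320, 2104, 2046 and 2461. All 12 mice given nicotine, ethanol or both therefore lay below all 4 WW mice, a pattern picked out after the values were seen and shared by 146 of 15592 genes (0.936%). In Water-Ethanol the mean was 2275 ± 58.9 normalized counts against 2652 ± 116 in WW (SD, n = 4 each), and Idi1 fell by 0.22 on the log2 scale (SE 0.0404, adjusted p = 0.0471, edgeR quasi-likelihood test with Benjamini-Hochberg adjustment). The difference was larger in NW but did not pass, at 2151 ± 175 normalized counts and a log2 fold change of -0.30 (SE 0.0596, edgeR adjusted p = 0.207). In NE it was 2233 ± 192 normalized counts, with a log2 fold change of -0.25 (SE 0.0582, edgeR adjusted p = 0.0825). Exact two-sided permutation tests gave p = 0.0286 in each of the 3 comparisons, the smallest value that 4 mice against 4 allow, and the 3 comparisons share the WW mice. The call in Water-Ethanol was close to the threshold: it was kept without WW replicate 21 and lost without any other mouse of either group (edgeR adjusted p from 0.0605 to 0.152). The estimate itself ranged from -0.25 to -0.20 with each mouse left out. The call was also lost with limma on FPKM (-0.21, adjusted p = 0.113) and with a correction for GC content (-0.18, edgeR adjusted p = 0.0625). It was lost as well in a fit of all 16 mice (-0.22, edgeR adjusted p = 0.114). With an oligodendrocyte marker score as covariate in that fit the estimate was smallest (-0.11, edgeR adjusted p = 0.551, range over all alternatives 0.000777 to 0.551). In bulk tissue, fewer cells of a type and less RNA per cell cannot be told apart.

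**Figure D2:**
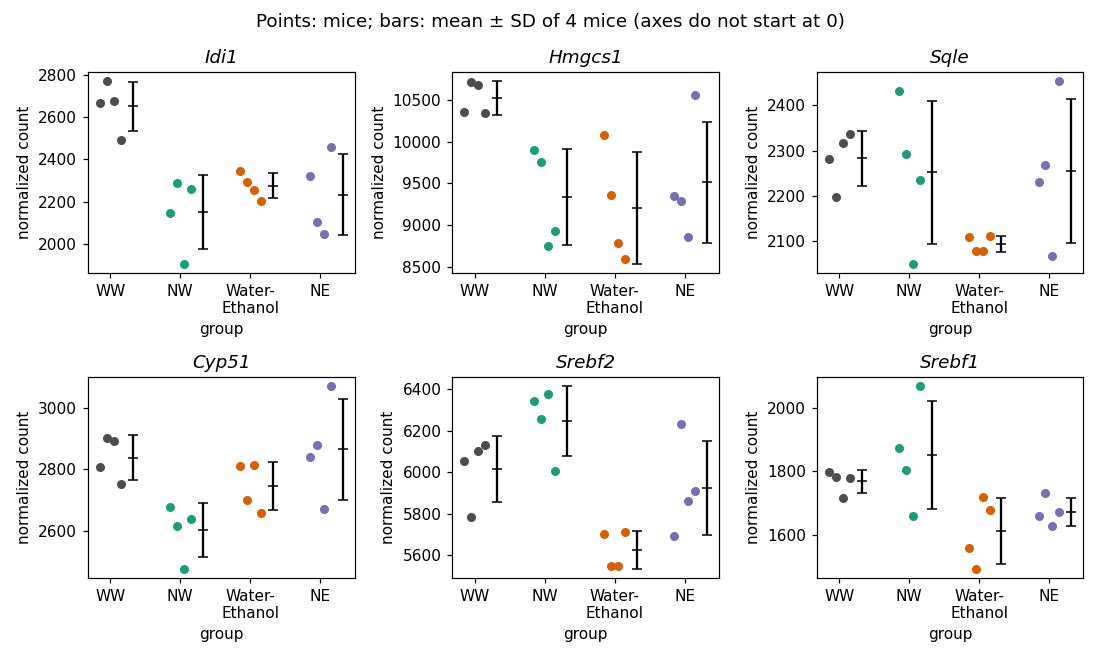
Normalized counts of 6 genes in each mouse (points) with the mean and SD of 4 mice beside them (bars) by group; vertical axes do not start at 0. All treated mice lie below the WW mice for Idi1, 11 of 12 do so for Hmgcs1, and the Water-Ethanol mice lie below the WW mice for Sqle and Srebf2.

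In Water-Ethanol against WW, the question was what the last days of ethanol drinking alone did to these genes. Of the 29 genes, 1 was called lower (Idi1) and 0 higher, where 0.457% of 15323 genes tested were called in either direction and 0.183% lower. The 70 genes behind that share were 797 without WW replicate 21 and at most 1 without WW replicate 19, WW replicate 20 or any 1 of the Water-Ethanol mice. DESeq2 called 2 of the set (Idi1 and Hmgcs1) and 5.1% of all genes to which it gave an adjusted p (11874), and limma on FPKM 0 of both. Here and below, DESeq2 shares are over such genes, whose number ran from 9839 to 20419 between comparisons. At an unadjusted p under 0.05, 7 of 29 were lower and 0 higher, against 9.05% lower and 10.3% higher of all genes (19.3% in either direction). In 22 of 29 genes the estimate was below 0, as in 49.4% of all genes, and the median log2 fold change was -0.05 over the set and 0.00 over all genes. All 8 enzymes from acetyl-CoA to squalene had estimates below 0, from -0.22 for Idi1 to -0.01 for the kinase Pmvk, as did 7 of the 10 later enzymes. The highest estimate was that of the sterol reductase Tm7sf2, 0.15, which did not pass (adjusted p = 0.269).

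Hmgcs1 (ENSMUSG00000093930, chr13:119690351-119708260, 11 exons) joins acetyl-CoA to acetoacetyl-CoA, an early step of the pathway. WW mice had 10358, 10716, 10682 and 10345 normalized counts. Water-Ethanol mice had 10076, 9356, 8779 and 8595, NW mice 9893, 9751, 8749 and 8929, and NE mice 9352, 9287, 8849 and 10553. The WW mice were tightly grouped and above every treated mouse except NE replicate 5, so 11 of 12 treated mice lay below the WW minimum. The log2 fold change was -0.19 in Water-Ethanol (SE 0.0479, adjusted p = 0.0831), -0.17 in NW (SE 0.0491, adjusted p = 0.321) and -0.14 in NE (SE 0.0493, adjusted p = 0.17), and none passed. Without WW replicate 21 the Water-Ethanol difference passed, at -0.20 with an adjusted p of 0.0372 (range over the alternatives 0.0112 to 0.69).

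Sqle, squalene epoxidase, introduces oxygen at the entry to the sterol part of the pathway (ENSMUSG00000022351, chr15:59315092-59331193, 11 exons). Its normalized counts were 2281, 2197, 2317 and 2336 in WW and 2108, 2078, 2078 and 2111 in Water-Ethanol. They were 2431, 2292, 2050 and 2234 in NW and 2230, 2268, 2067 and 2454 in NE. The Water-Ethanol mice were low and close to each other (2094 ± 18.2), whereas NW and NE mice spread to both sides of WW. The log2 fold change in Water-Ethanol was -0.12 (SE 0.0346, adjusted p = 0.101). Msmo1 also did not overlap between Water-Ethanol and WW (-0.12, SE 0.0409, adjusted p = 0.152), nor did squalene synthase Fdft1 (-0.09, SE 0.0373, adjusted p = 0.197). Fdft1 shares 774 of its 2863 exon bases with the antisense gene Ctsb, whose median count was 16974, and the sources differ on whether the library kit keeps strand and do not say whether counting used it.

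Of the 5 sterol-sensing genes, 0 passed in a comparison with WW. Srebf2 (ENSMUSG00000022463, chr15:82147269-82204960, 19 exons) had 6056, 5783, 6101 and 6130 normalized counts in WW and 5700, 5545, 5545 and 5710 in Water-Ethanol. It had 6345, 6258, 6377 and 6004 in NW and 5691, 6232, 5863 and 5911 in NE. All Water-Ethanol mice were below all WW mice, and 3 NW mice were above them. Against WW the log2 fold change was -0.09 in Water-Ethanol (SE 0.0334, adjusted p = 0.158), 0.06 in NW (adjusted p = 0.748) and -0.02 in NE (adjusted p = 0.817). Srebf1 (ENSMUSG00000020538, chr11:60199089-60220604, 19 exons), whose product also drives fatty acid synthesis, had 1798, 1781, 1716 and 1779 normalized counts in WW and 1559, 1492, 1718 and 1678 in Water-Ethanol. It had 1873, 1805, 1659 and 2069 in NW and 1658, 1733, 1629 and 1671 in NE. One Water-Ethanol mouse overlapped the WW range and the log2 fold change was -0.13 (SE 0.0476, adjusted p = 0.165). Insig1, Insig2 and Scap had estimates of -0.10, 0.01 and 0.02 in Water-Ethanol, and none passed. Srebf1 shares 107 of 4299 exon bases with the antisense gene Rai1.

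Over Water-Ethanol and WW, 6 of the 29 genes did not overlap and all were lower (Idi1, Hmgcs1, Sqle, Msmo1, Fdft1 and Srebf2), against 5.68% lower and 5.13% higher of all genes (10.8% in either direction). Genes of transport, efflux and turnover had estimates from -0.10 (Cyp46a1, adjusted p = 0.291) to 0.11 (Nr1h2, adjusted p = 0.263), and 0 of 6 reached an unadjusted p under 0.05.

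**Figure D3:**
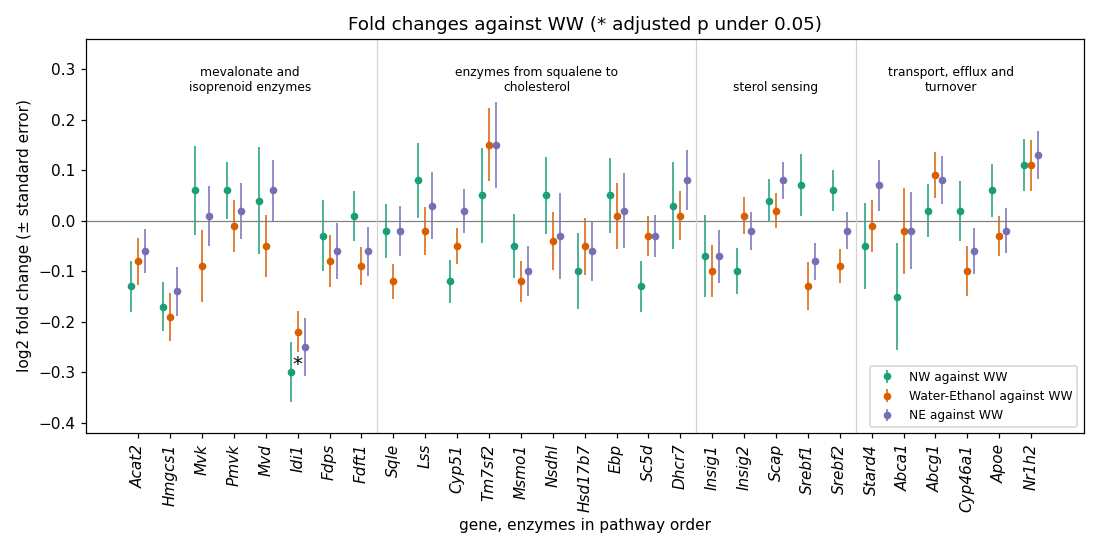
Log2 fold change against WW with its standard error for each of the 29 genes, enzymes in pathway order, in NW, Water-Ethanol and NE (4 mice against 4). The asterisk marks Idi1 in Water-Ethanol, the one difference with an adjusted p under 0.05. All 8 enzymes of the mevalonate and isoprenoid branch lie below 0 in Water-Ethanol.

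NW against WW addressed nicotine alone. With edgeR, 0 of 29 genes passed, as did 0 of 15344 genes tested (percent called 0). DESeq2 called 1 of the set (Idi1) and 0.987% of all genes, the edgeR fit of all 16 mice 1 (Idi1) and 0.718%, and limma on FPKM 0 of both. At an unadjusted p under 0.05, 6 of 29 were lower and 0 higher, against 6.49% lower and 1.95% higher of all genes (8.44% in either direction). Besides Idi1 and Hmgcs1, these were lanosterol demethylase Cyp51 (-0.12, SE 0.0419, adjusted p = 0.42), the sterol desaturase Sc5d (-0.13, SE 0.0506, adjusted p = 0.511), the thiolase Acat2 that makes acetoacetyl-CoA (-0.13, SE 0.0501, adjusted p = 0.52) and the SCAP retention gene Insig2 (-0.10, SE 0.0452, adjusted p = 0.585). The groups did not overlap in 5 genes, all lower (Acat2, Hmgcs1, Idi1, Cyp51 and Sc5d), against 4.25% lower and 1.71% higher of all genes (5.96% in either direction). Estimates lay on both sides of 0: 13 of 29 were below 0, as in 46.4% of all genes, and the median log2 fold change was 0.02, against 0.01 over all genes. Mevalonate kinase Mvk (0.06), Pmvk (0.06), the decarboxylase Mvd (0.04) and Lss (0.08) had estimates above 0 in NW, none of which passed. The score of 5 olfactory bulb markers ran from -0.46 to 0.09 in NW and from 0.13 to 0.27 in WW (exact permutation p = 0.0286), and its part in these values was not tested.

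Cyp51 and Acat2 did not overlap between NW and WW but passed in no comparison, and their group means follow. WW mice averaged 2839 ± 72 normalized counts of Cyp51 and NW mice 2601 ± 88.1, while Water-Ethanol mice averaged 2744 ± 78.9 and NE mice 2865 ± 164 (mean ± SD of 4 mice). NW was the lowest group, and NE overlapped WW. Acat2 averaged 1086 ± 19.5 normalized counts in WW and 993 ± 45.9 in NW, against 1027 ± 50.6 in Water-Ethanol mice and 1042 ± 39.5 in NE, with 10 of the 12 treated mice below the WW minimum.

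NE against WW addressed the combination. With edgeR, 0 of 29 genes passed, where 0.313% of 15313 genes were called, 0.196% higher and 0.118% lower. DESeq2 called 1 (Idi1) and 4.27% of all genes, and limma on FPKM 0 of the set. At an unadjusted p under 0.05, 2 of 29 were lower (Idi1 and Hmgcs1) and 1 higher (Nr1h2), against 8.23% lower and 9.22% higher of all genes (17.5% in either direction). Nr1h2 was at 1009 ± 35.3 normalized counts in WW and 1103 ± 47.4 in NE, a log2 fold change of 0.13 (SE 0.0474, adjusted p = 0.192). It was also above WW by 0.11 in NW and 0.11 in Water-Ethanol, and 8 of 12 treated mice lay above the WW maximum. Idi1 alone did not overlap between NE and WW and was lower, against 5.51% lower and 5.22% higher of all genes (10.7% in either direction). Estimates were below 0 in 17 of 29 genes, as in 48.6% of all genes, and the median log2 fold change of the set was -0.02, against 0.00 over all genes. Idi1 passed without WW replicate 21 (-0.28, adjusted p = 0.0382, range over the alternatives 0.00859 to 0.307).

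No gene of transport, efflux and turnover passed the test in any of the 6 comparisons. Apoe was at 25387 ± 1187 normalized counts in WW, and 24788 ± 713 in Water-Ethanol mice, 26424 ± 1465 in NW and 24917 ± 1197 in NE, with 2 of 12 treated mice below the WW minimum and 1 above the maximum. Cyp46a1 averaged 4046 ± 276 in WW and 4088 ± 241 in NW, and 3768 ± 156 and 3886 ± 68.2 normalized counts in Water-Ethanol and NE mice. The highest values were those of the libraries low in cerebellum markers, WW replicate 21 (4441) and NW replicate 10 (4386), while the other WW mice lay between 3802 and 3985. With the cerebellum score as covariate the estimate went from -0.10 to -0.06 in Water-Ethanol and from -0.06 to -0.02 in NE. Abca1, which loads cholesterol onto apolipoproteins, varied most among the WW mice (2125 to 2696 normalized counts, a coefficient of variation of 13.1%). No treated mouse exceeded its WW maximum, and its estimate was -0.15 in NW, against -0.02 in both groups given ethanol. Abcg1 ran from 2715 to 3128 in WW, and 3 treated mice lay above that range and 0 below it. Stard4 had estimates of -0.05, -0.01 and 0.07 in NW, Water-Ethanol and NE, and 5 treated mice exceeded its WW maximum.

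The remaining synthesis enzymes (Mvk, Pmvk, Mvd, Fdps, Lss, Tm7sf2, Nsdhl, Hsd17b7, Ebp and Dhcr7) overlapped WW in all 3 comparisons, and none reached an unadjusted p under 0.05 in any comparison. Mvd, which decarboxylates mevalonate diphosphate, had its widest spread in NW, from 374 normalized counts in replicate 10 to 540.4 in replicate 7. Dhcr7 likewise ran from 907 in NW replicate 10 to 1184 in NW replicate 7, while WW mice ran from 979 to 1077. Tm7sf2 was the enzyme with the most treated mice above the WW maximum, 6 of 12, at a mean of 396 ± 36.9 normalized counts in WW and 439 ± 18.7 in Water-Ethanol mice.

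Across the 29 genes, Water-Ethanol had the lowest group mean for 15, NW for 8, WW for 6 and NE for 0, and over all genes tested for 25.7%, 26.2%, 28% and 20.1%. The highest group mean was that of WW for 10, NW for 10, NE for 6 and Water-Ethanol for 3, and over all genes for 25.9%, 27.2%, 21.7% and 25.2%. Among the 18 synthesis enzymes, Water-Ethanol was lowest for 10 and highest for 1.

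Using all 16 mice, the ethanol effect averaged over nicotine compared the 8 mice given ethanol with the 8 given none. With edgeR, 0 of 29 genes passed, where 4.5% of 15592 genes were called, 2.94% higher and 1.56% lower. DESeq2 called 2 (Srebf1 and Srebf2) and 7.8% of all genes, and limma on FPKM 0 of the set and 3.93% of all genes. At an unadjusted p under 0.05, 4 of 29 were lower and 1 higher, against 10.1% lower and 12.8% higher of all genes (22.9% in either direction). Estimates were below 0 in 19 of 29 genes, as in 49.2% of all genes. The smallest p-values were those of the transcription factors. Srebf1 was at 1642 ± 81.1 normalized counts with ethanol and 1810 ± 122 without (SD, 8 mice each), a log2 effect of -0.14 (SE 0.0403, edgeR adjusted p = 0.0524, permutation p = 0.00408). Srebf2 was at 5775 ± 226 with ethanol and 6132 ± 195 without, a log2 effect of -0.09 (SE 0.0255, edgeR adjusted p = 0.0579, permutation p = 0.00163). These permutations exchanged mice within each nicotine level, were exact and two-sided, and could give no p below 0.000408. Both effects lay just outside the threshold, and without NE replicate 3 both passed (adjusted p = 0.0483 and 0.0327, ranges over the alternatives 0.0145 to 0.242 for Srebf1 and 0.0151 to 0.228 for Srebf2). Srebf1 alone passed without NW replicate 10 (adjusted p = 0.0145), and Srebf2 alone without NW replicate 11 (adjusted p = 0.0365). The other genes were Fdft1 (-0.09, SE 0.0345, adjusted p = 0.143), Cyp46a1 (-0.09, SE 0.0351, adjusted p = 0.145; -0.05 without both mice low in cerebellum markers, adjusted p = 0.316, range over the alternatives 0.0548 to 0.355) and the sterol exporter Abcg1 (0.07, SE 0.0325, adjusted p = 0.198). All 8 enzymes from acetyl-CoA to squalene had estimates below 0, from -0.09 to -0.01.

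For the nicotine effect averaged over ethanol, edgeR called 0 of 29 genes and 0 of 15592 genes (percent called 0), DESeq2 1 of the set (Idi1) and 0.996% of all genes, and limma on FPKM 0 of both. At an unadjusted p under 0.05, Idi1 (-0.16, SE 0.0427, adjusted p = 0.217) and Insig2 (-0.06, SE 0.0278, adjusted p = 0.443) were lower and Srebf2 was higher (0.06, SE 0.0255, adjusted p = 0.392), against 6.7% lower and 3.56% higher of all genes (10.3% in either direction). Estimates were below 0 in 11 of 29 genes, as in 48% of all genes. The estimates for Srebf2 thus had opposite signs for ethanol and for nicotine.

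The interaction asks whether the effect of ethanol differed between mice with and without nicotine. It cannot separate this from the higher ethanol intake reported for NE mice. No gene of the set passed in edgeR, DESeq2 or limma on FPKM (percent called over all genes 0 in edgeR and 0.0049 in DESeq2). At an unadjusted p under 0.05, 5 of 29 had a positive interaction and 0 a negative one, against 4.75% and 2.01% of all genes (6.76% in either direction). The estimate was below 0 in 9 of 29 genes, as in 49.8% of all genes. The largest was that of Idi1, 0.28 (SE 0.0854, adjusted p = 0.651): its log2 fold changes of -0.30 in NW and -0.22 in Water-Ethanol were set against -0.25 in NE. Hmgcs1 had an interaction of 0.22 (SE 0.0813, adjusted p = 0.678), Cyp51 0.19 (SE 0.0599, adjusted p = 0.66), Acat2 0.15 (SE 0.0665, adjusted p = 0.713) and Sc5d 0.14 (SE 0.0653, adjusted p = 0.725). All 5 were synthesis enzymes, which make up 18 of the 29 genes. They are also the 5 that did not overlap between NW and WW. The same WW mice enter both comparisons, so the 2 results are not separate.

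Within NW and NE, many synthesis enzymes were highest or lowest in the same mouse. Among the 18 enzymes, NW replicate 7 was the highest NW mouse in 12 and NW replicate 10 the lowest in 15, where these mice were highest in 26% and lowest in 26.9% of all genes. In NE, replicate 5 was highest in 10 enzymes (23.5% of all genes) and replicate 4 lowest in 13 (20.7% of all genes). In WW and Water-Ethanol no mouse was highest or lowest in more than 8 of the 18. The median coefficient of variation over the enzymes was 3.83% in WW and 8.34% in NW, and 3.96% and 6.89% in Water-Ethanol and NE mice. Over all genes tested it was 6.63%, 8.07%, 5.9% and 6.02% in the same order. NW replicate 10 is the library with low cerebellum markers and the highest Rn45s share, and the part of these in its low enzyme counts was not tested.

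**Figure D4:**
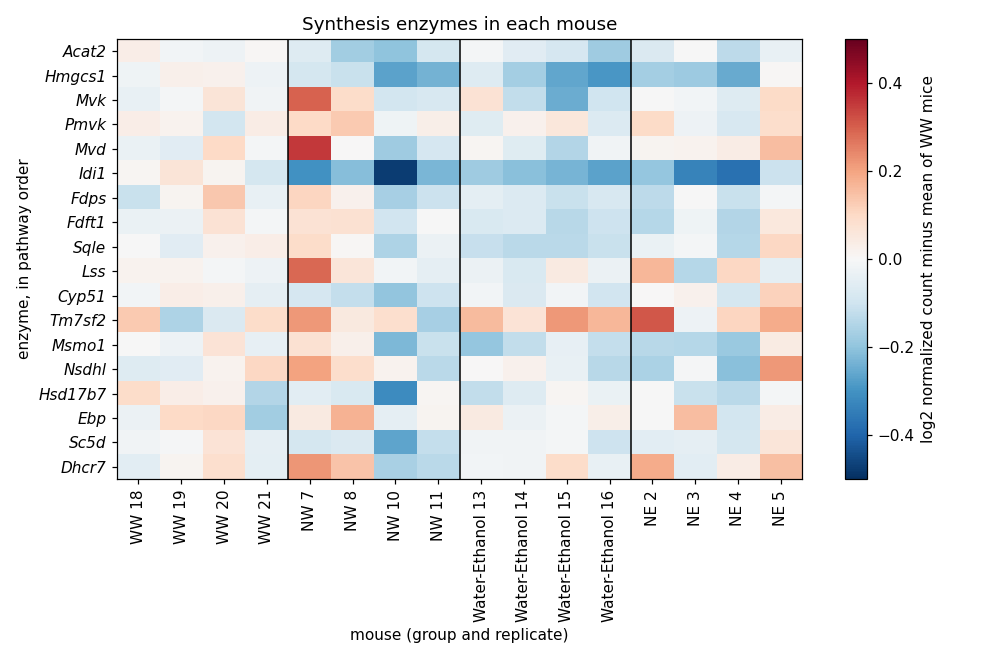
Log2 normalized count of the 18 synthesis enzymes in each mouse, minus the mean of the 4 WW mice (colour), in pathway order. NW replicate 10 and NE replicate 4 are lowest of their groups in 15 and 13 enzymes, and Idi1 is below the WW mean in every treated mouse.

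Mature oligodendrocytes make the sterol-rich myelin membrane, and their markers are given beside these enzymes. The score of 11 markers of mature oligodendrocytes ran from -0.03 to 0.21 in WW, -0.07 to 0.16 in NW, -0.22 to -0.01 in Water-Ethanol and -0.16 to 0.10 in NE. In Water-Ethanol all 11 markers had estimates below 0 and 8 were lower at an unadjusted p under 0.05, against 9.05% of all genes, and exact permutation tests of the score gave p = 0.0571 for Water-Ethanol, 0.286 for NW and 0.114 for NE against WW. In NE all 11 oligodendrocyte markers also had estimates below 0, and 7 were lower at an unadjusted p under 0.05, against 8.23% of all genes. Of the 18 enzymes, 10 had estimates below 0 in NE, against 15 in Water-Ethanol. The mean scores of microglia, endothelium and neurons were also below those of WW in Water-Ethanol (exact permutation p = 0.0571, 0.0286 and 0.0571). All 8 microglia markers had estimates below 0 and 7 were lower at an unadjusted p under 0.05, as were 4 of 8 endothelium and 3 of 9 neuron markers. The astrocyte score ran from -0.03 to 0.09 in WW and -0.04 to 0.04 in Water-Ethanol. Choroid plexus and cerebellum scores had higher means in Water-Ethanol than in WW (exact permutation p = 0.229 and 0.714). Those of olfactory bulb and of oligodendrocyte precursors had lower means (exact permutation p = 0.343 and 0.257).

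With group means removed, the oligodendrocyte score and the level of a gene were related across the 16 mice for 8 of 29 genes by Pearson's r after Benjamini-Hochberg adjustment over 87 relations (29 genes with 3 scores), and for 4 of these also by Spearman's rho. The 4 were Cyp51 (r = 0.79, rho = 0.83, adjusted permutation p = 0.00992 and 0.0144), Sc5d (r = 0.78, rho = 0.79, adjusted permutation p = 0.00992 and 0.0144), Dhcr7, the final reductase of the pathway (r = 0.77, rho = 0.77, adjusted permutation p = 0.00992 and 0.0144), and Hmgcs1 (r = 0.76, rho = 0.71, adjusted permutation p = 0.00992 and 0.0381). Unadjusted permutation p-values for these r were 0.00029, 0.00031, 0.00051 and 0.00052. Without the mice with the most extreme scores, WW replicate 18 and NE replicate 5, r was 0.78, 0.77, 0.82 and 0.74. Idi1 had r = 0.62 (adjusted permutation p = 0.0488) and rho = 0.54 (adjusted permutation p = 0.197), with r = 0.61 without those mice. The median r over the 18 enzymes was 0.59, whereas Srebf2 had r = -0.17 and Srebf1 r = -0.03. The astrocyte score was related to 4 genes by r and to 0 by both measures. How many of all genes were related to these scores was not computed, so these counts have no share beside them. The permutations exchanged mice across groups after the group means were removed, which can make their p-values too small. The cerebellum score set the libraries WW replicate 21 and NW replicate 10 apart from the rest, so that no pooled r is given for it. With these mice in, it was related to 7 genes by r and to 2 by both measures (Insig1 and Stard4). Without them r was 0.63 for Insig1, 0.59 for Stard4 and 0.39 for Idi1.

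**Figure D5:**
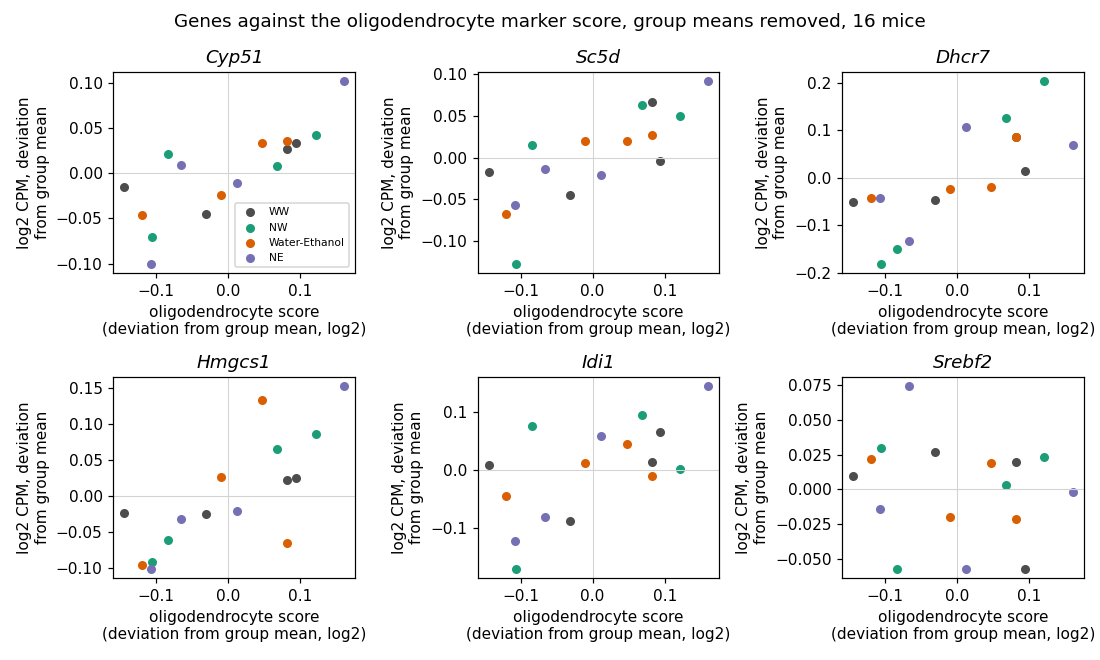
Level of 6 genes (log2 CPM) against the oligodendrocyte marker score, both as deviations from the group mean, 1 point per mouse (n = 16). Cyp51, Sc5d, Dhcr7 and Hmgcs1 rise with the score (r from 0.76 to 0.79), Idi1 less so (r = 0.62), and Srebf2 does not (r = -0.17).

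With this score as a covariate in the fit of all 16 mice, most enzymes in Water-Ethanol were nearer to WW or above it, while Srebf1 and Srebf2 kept their estimates. Without the covariate 15 of 18 enzymes had estimates below 0 in Water-Ethanol, with a median log2 fold change of -0.06, and with it 6 of 18, with a median of 0.04. The shift was not limited to Water-Ethanol. In NE the count went from 10 to 5 and the median from -0.03 to 0.07, and in NW from 9 to 7 and from -0.01 to 0.03. With the cerebellum score in its place the Water-Ethanol count was 17 of 18 and the median -0.08, and Idi1 was at -0.26 and passed (adjusted p = 0.024). The cerebellum score differs mainly in WW replicate 21 and NW replicate 10, so that fit mostly sets these mice apart. Without WW replicate 21 alone, Idi1 was at -0.25 in Water-Ethanol (edgeR adjusted p = 0.0101). With the oligodendrocyte score the Water-Ethanol estimate for Hmgcs1 went from -0.19 to -0.06 and that for Idi1 from -0.22 to -0.11. For Srebf2 it went from -0.10 to -0.11 and for Srebf1 from -0.13 to -0.14. In NW, Idi1 went from -0.30 to -0.26 and passed in this fit, which called 1.04% of all genes (adjusted p = 0.0379, range over the alternatives 0.00456 to 0.616). Idi1 also passed in NW in the fit of all 16 mice without the score (edgeR adjusted p = 0.0319). The score and the ethanol groups partly coincide, so that their parts cannot be told apart.

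Related genes outside the set gave few calls. Of 28 other sterol handling genes 27 were tested, and 1 passed in the averaged ethanol effect: the lipid transporter Abca7 rose by 0.41 on the log2 scale (SE 0.0823, adjusted p = 0.00992). A count of 1 in 27 is near the 4.5% called over all genes. Abca7 was the one of 27 that passed in any of the 6 comparisons. Of 10 fatty acid synthesis genes known to be driven by SREBP, all 10 had estimates below 0 in the averaged ethanol effect, with a median of -0.04, and fatty acid synthase Fasn fell by 0.13 on the log2 scale (SE 0.0295, adjusted p = 0.0182). In the averaged ethanol effect, where 1.56% of all genes were called lower, 3 of 11 oligodendrocyte markers fell, Cnp (-0.21, adjusted p = 0.0264), Opalin (-0.39, adjusted p = 0.0347) and Ugt8a (-0.19, adjusted p = 0.0307). So did 3 of 8 microglia markers (Cx3cr1, C1qa and C1qb, from -0.22 to -0.20), 2 of 8 endothelium markers (Slco1a4 at -0.22 and Abcb1a at -0.14) and 1 of 11 astrocyte markers (Aldh1l1, -0.19). Not all markers fell: 1 of 6 choroid plexus markers, Kcnj13, rose by 0.57 (edgeR adjusted p = 8.43e-05), where 2.94% of all genes were called higher. All 7 cerebellum markers and 3 of 11 astrocyte markers had estimates above 0, none of them called.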

How the data were processed

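The authors trimmed reads with Trimmomatic 0.32, aligned them to GRCm38 (mm10) with TopHat2 and deposited unscaled read counts for each gene. The second deposited table holds FPKM made with the Cufflinks tools. The study's methods name a stranded library kit and a strand-specific alignment, while the kit in the labels is not named as stranded. The counting program, its strand setting and its treatment of reads that map to several places are not given in the sources used here. Gene positions are those of the count table.

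Counts of all genes were tested with edgeR 4.0.16 (quasi-likelihood test, TMM factors, filterByExpr, Benjamini-Hochberg, threshold 0.05) in R 4.3.3, on 8 mice for each comparison with WW and on 16 for the averaged effects and the interaction. Alternatives were RLE factors, no filter, DESeq2 1.42.0, limma 3.58.1 on log2(FPKM + 1), a correction for GC content (Biostrings 2.70.1), a fit of all mice, marker scores as covariates and leaving out each mouse. Leaving out both mice with low cerebellum markers was added after seeing the data. Permutation tests used log2 CPM (prior 0.5), and correlations 100000 permutations (Python 3.11.15, scipy 1.17.1, numpy 2.4.6, pandas 2.3.3, matplotlib 3.10.9). Fits were tested on simulated data. A fold change was named where its unadjusted p was under 0.05 or the groups did not overlap, and values per mouse were given at an adjusted p under 0.05, or an unadjusted p under 0.01 in a comparison with WW or the averaged ethanol effect. Other genes or estimates named were chosen after their values were seen. The members and lists were chosen with earlier results of these data known. The labels name no batch. Reads were not analysed here.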

Additional observations from a re-analysis of the deposited data

Results flagged for a closer look

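Among 116 groups of 4 mice (29 genes in 4 groups), 8 held a mouse far from the other 3 by Dixon's criterion, and chance gives about 1 in 20 groups, or 5%. In WW, Pmvk was at 745 normalized counts in replicate 20 against 804 to 814 in the others, and the sterol carrier gene Stard4 at 902 in replicate 21, the library lowest in cerebellum markers, against 1016 to 1027. In NW, Insig1 was at 2214 in replicate 10, the library with the next lowest cerebellum score, against 2795 to 2866. In Water-Ethanol, Sc5d was at 2016 in replicate 16 against 2141 to 2152. In NE, Mvd was at 469.7 in replicate 5 against 426 to 433, Nr1h2 at 1032 in replicate 5 against 1117 to 1133, Insig2 at 1859 in replicate 4 against 1748 to 1765, and Abca1 at 2245 in replicate 2 against 2408 to 2412.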

How the results depend on the processing

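The number of the 29 genes called moved with the processing. In NW it was 0, and 1 (Idi1) with DESeq2, in the fit of all 16 mice and in that fit with the oligodendrocyte or the cerebellum score, and from 0 to 0 with each mouse left out. In Water-Ethanol it was 1, and 2 with DESeq2 (Idi1 and Hmgcs1), 0 with limma on FPKM, with the GC correction, in the fit of all 16 mice and with the oligodendrocyte score, and from 0 to 2 with each mouse left out (2 without WW replicate 21). In NE it was 0, and 1 (Idi1) with DESeq2 and with the cerebellum score, and from 0 to 1 with each mouse left out. For the averaged ethanol effect it was 0, and 2 (Srebf1 and Srebf2) with DESeq2 and with the GC correction, 1 (Srebf1) with the cerebellum score, 2 (Srebf1 and Insig1) without both mice low in cerebellum markers, and from 0 to 2 with each mouse left out. For the averaged nicotine effect it was 0, and 1 (Idi1) with DESeq2. The interaction gave 0 in all these. Of the 29 fold changes named under the rule, 1 reversed sign: Msmo1 in Water-Ethanol was 0.01 with the oligodendrocyte score (adjusted p = 0.966). Among all 18 enzymes that score took the number below 0 in Water-Ethanol from 15 to 6. Of 574 alternative values for the 29 fold changes, 542 kept direction and side of the threshold, 11 lost and 20 gained a call. The cause was not tested. Of all genes, the averaged ethanol effect called 702, against 40 with the oligodendrocyte score and 1210 with the cerebellum score, and 280 to 899 with each mouse left out. Water-Ethanol against WW called 70 genes, against 605 with DESeq2, 0 with limma on FPKM, 797 without WW replicate 21, 84 without WW replicate 18 and at most 1 without any other mouse. NE against WW called 48, against 508 with DESeq2, 1 with limma on FPKM, 283 without WW replicate 21 and 0 to 11 without any other mouse. NW against WW called 0, against 121 with DESeq2, 112 in the fit of all 16 mice and 0 with each mouse left out. The averaged nicotine effect called 0, against 98 with DESeq2, 49 without NW replicate 11, 14 without NE replicate 2 and 0 without any other mouse.

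No paired analysis was possible because the groups share no replicate numbers. With 4 mice a group, differences of the size of most seen here (about 0.1 on the log2 scale or less) lie near the replicate spread. Those of Idi1 against WW were larger (-0.30 to -0.22). The p-values cover separate mice of 1 strain, sex and age.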
